A study of Mus musculus with 2 samples.

Results

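The genes described here are 30 postsynaptic density scaffolds and regulators, taken from a list of gene names, and not by a threshold on their values. The list was chosen with earlier results of these data known, so it is not independent of them. Each of the 30 names matched 1 gene identifier among the 55536 annotated genes of the tables. The study sequenced total RNA of the cortex (left hemisphere), starting from 300 ng with ERCC spike-ins, in female mice of the B6CASTF1/J strain, F1 hybrids of the C57BL/6J and CAST/EiJ strains, aged 18 to 20 months. There were 2 libraries in 1 group, numbered as biological replicates 1 and 2, with no treatment and no contrast. Both biosamples carry 1 donor entry in the labels, so separate animals are not established and the spread between the libraries may be technical. Whether CAST/EiJ variants changed where reads were placed was not analysed here.

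The postsynaptic density is the protein mesh under the membrane of excitatory synapses. MAGUK proteins (the Dlg genes) bind glutamate receptors and adhesion proteins near the membrane, SAPAP proteins (the Dlgap genes) link them to Shank proteins deeper in the mesh, and Shank and Homer proteins tie the assembly to metabotropic receptors, calcium stores and actin. Inhibitory synapses use a different scaffold built on gephyrin. Around the scaffolds sit regulators of actin and of small GTPases that shape the dendritic spine, and adaptors that anchor or traffic receptors.

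The gene tables summed to 32504959 expected counts for replicate 1 and 24899781 for replicate 2, and the 30 genes took 1.14% and 1.18% of the counts on genes. Markers of excitatory neurons (4 of 4), inhibitory neurons (3 of 3), astrocytes (4 of 4), oligodendrocytes (4 of 4), microglia (4 of 4) and endothelium (3 of 3) reached 1 TPM in both libraries. Markers of cerebellum did not (0 of 3, Gabra6 listed at 0 in both). In bulk tissue, fewer cells of a type and less RNA per cell cannot be told apart.

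Levels are given in TPM (a level scaled for transcript length and for depth), from the gene table of each library unless the alignment-free tables are named. All 30 genes reached 1 TPM in both libraries, against 58.3% of the 22015 nuclear protein-coding genes. Their medians in replicates 1 and 2 were 94.3 and 101.9 TPM. The 12844 expressed nuclear protein-coding genes, those with 1 TPM or more in both libraries, had medians of 15.5 and 16.0 TPM. The genes of the set therefore lay mostly in the upper part of the expressed range, although Homer3 and Grip1 fell in its lower part, at percentiles 17.1 and 29.6. With the genes in order of their mean, 15 of the 29 neighbouring pairs had overlapping ranges, so many adjacent ranks are not resolved by 2 libraries.

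**Figure D1:**
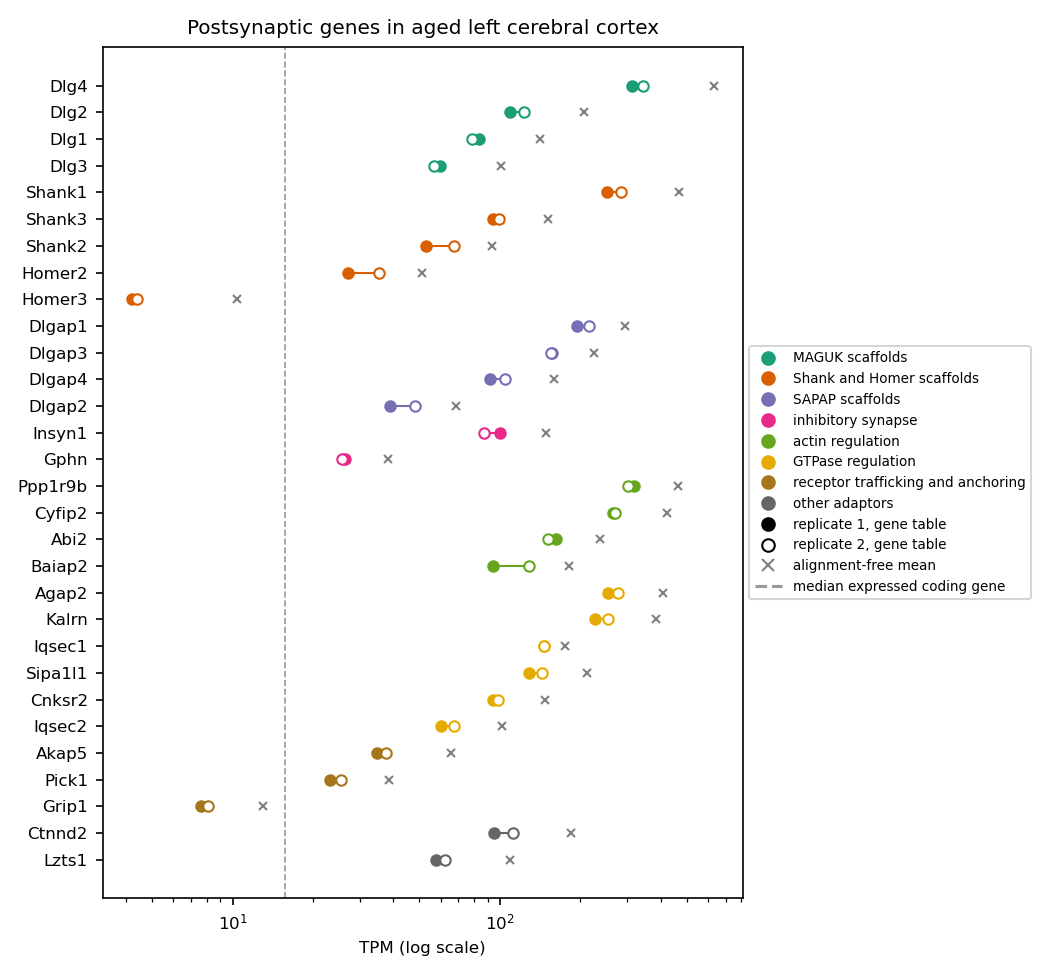
TPM of each gene on a log axis, with filled points for replicate 1, open points for replicate 2 (gene tables), crosses for the mean of the alignment-free tables, colours for roles and a dashed line at the median of expressed coding genes. Dlg4 and Ppp1r9b lead, Homer3 and Grip1 alone lie left of the dashed line, and the crosses lie to the right of the points for all 30 genes.

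Among the MAGUK scaffolds, Dlg4, the main scaffold of the mature excitatory synapse, had 312 and 342 TPM in replicates 1 and 2. It was the gene with the highest mean in the set (327 ± 21.5 TPM, SD, n = 2), although its range overlapped that of Ppp1r9b. Dlg2 had 109 and 124 TPM, Dlg1, a member also found in epithelial cells, 83.8 and 78.6 TPM, and the X-linked Dlg3 59.8 and 56.9 TPM. The 4 ranges did not overlap. As a share of the summed TPM of these 4 genes, Dlg4 held 56.1% ± 1.18, Dlg2 19.9% ± 0.878, Dlg1 14.0% ± 1.26 and Dlg3 10.02% ± 0.797.

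Among the Shank genes Shank1 led. It had 251 and 284 TPM, above Shank3 (94.0 and 99.4 TPM) and Shank2 (53.1 and 67.4 TPM), and held 63.0% ± 0.0481 of the family's TPM. Ranges of the Shank genes did not overlap. Of the Homer genes, the set holds Homer2 and Homer3 and not Homer1, so no order of the whole family is given. Homer2 had 27.0 and 35.4 TPM. Homer3 had 4.19 and 4.40 TPM, the lowest level of the set, from 141 and 106 counts. Its value is uncertain, since 25.4% of its exon bases overlap exons of Ddx49 on the opposite strand (20.97 and 23.43 TPM) and the use of strand in counting is not given in the sources used here.

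The SAPAP genes were ordered Dlgap1 (195 and 215 TPM), Dlgap3 (157 and 156 TPM), Dlgap4 (91.9 and 104 TPM) and Dlgap2 (38.9 and 48.2 TPM), without overlap of ranges. Dlgap1 and Dlgap3 together held most of the summed TPM of these 4 genes, at 40.8% ± 0.461 and 31.1% ± 1.91. The proteins they encode are known to bind the Shank PDZ domain through their last residues. The ends of their leading coding sequences are shown because the 4 genes differ several-fold in level but share this end. The capitals mark the last 15 coding bases, stop codon included, and 11 of the 15 positions are identical in all 4.
Dlgap1: gaggcgCAGACCCGGCTCTGA
Dlgap2: gaggccCAGACGCGGCTCTGA
Dlgap3: gaggccCAGACCAGGCTGTGA
Dlgap4: gaggccCAGACCAGGCTCTAA

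The inhibitory scaffold gene Gphn, which encodes gephyrin, had 26.5 and 25.6 TPM. Insyn1, which encodes a gephyrin-binding protein of inhibitory synapses, had 100.2 and 87.3 TPM, and its range lay above that of Gphn. Of the regulators of actin, Ppp1r9b, which encodes the spine protein spinophilin, had 319 and 303 TPM and was the second gene of the set by mean. Cyfip2 (264 and 270.1 TPM) and Abi2 (162 and 152 TPM) encode subunits of the WAVE complex, which promotes branched actin. Baiap2, which encodes a membrane-bending adaptor that binds WAVE proteins, had 94.0 and 129 TPM, the highest ratio between the libraries in the set.

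Regulators of small GTPases were abundant as a group, with medians of 138 and 145 TPM over 6 genes. Only the 4 regulators of actin had higher group medians, 213 and 211 TPM. Agap2, which encodes a GTPase-activating protein for Arf proteins, had 254 and 276 TPM, and Kalrn, which encodes a guanine nucleotide exchange factor, had 227 and 254 TPM. The exchange factor gene Iqsec1 had 146 and 146 TPM and its X-linked relative Iqsec2 60.5 and 67.3 TPM. Sipa1l1, a Rap regulator of spines, had 129 and 144 TPM, and the X-linked scaffold gene Cnksr2 94.6 and 98.2 TPM. All 6 were slightly higher in replicate 2, with log2 ratios from 0.02 to 0.09, against 44.8% of the 12569 genes averaging at least 100 counts. Over the whole set this direction depended on the kind of table, with 21 of 30 genes higher, but 14 of 30 with alignment-free counts.

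The genes that anchor or traffic receptors were the lowest group, with medians of 23.1 and 25.6 TPM over 3 genes. Akap5, which encodes an anchor for protein kinase A and calcineurin, had 34.8 and 37.5 TPM. Pick1 had 23.1 and 25.6 TPM and Grip1 7.61 and 8.12 TPM; both encode PDZ proteins that bind AMPA receptor subunits. Pick1 was the 1 gene of the set with fractional counts in the gene table (957.99 and 788.11), and 18.6% of its exon bases overlap the gene Gm49486 on the same strand. Of the other adaptors, Ctnnd2, which encodes the neuronal delta-catenin, had 95.1 and 112 TPM, and Lzts1, a leucine zipper protein of the postsynaptic density, 57.7 and 62.5 TPM.

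The libraries were compared gene by gene through the log2 ratio of replicate 2 to replicate 1 in scaled counts. With 1 library on each side there is no test, and the ratios describe these libraries. None of the 30 genes passed 1.5-fold, against 14.3% of the 18246 genes averaging at least 10 counts and 3.77% of the 12569 averaging at least 100 counts, a level that every gene of the set reached. The median absolute log2 ratio was 0.08 for the set and 0.13 for the 12569 genes. Those genes were not matched to the set on depth, and most genes of the set had counts far above 100. Baiap2 had the highest ratio, 0.36, from 6783 and 6701 counts in replicates 1 and 2. Shank2 followed at 0.27, from 8813 and 8183 counts.

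At the other end stood Insyn1 with a log2 ratio of -0.24, from 4359 and 2831 counts. Both inhibitory synapse genes were lower in replicate 2, Gphn at -0.12. Genes of other roles had ratios close to that of Gphn, among them Ppp1r9b (-0.12), Dlg1 (-0.12) and Dlg3 (-0.10). The 3 markers of inhibitory neurons, Gad1, Gad2 and Slc32a1, none of them at 0, summed to 282 TPM in replicate 1 and 238 TPM in replicate 2, with a median log2 ratio of -0.30. The summed markers of oligodendrocytes (261 and 229 TPM), microglia (65.8 and 59.8 TPM), endothelium (45.8 and 36.8 TPM), choroid plexus (7.93 and 4.14 TPM) and blood (395 and 256 TPM) were lower in replicate 2 as well. Those of excitatory neurons (1733 and 1796 TPM) and astrocytes (228 and 240 TPM) were higher. The part of these markers in the ratios of Gphn and Insyn1 was not tested. In all, 21 of the 30 genes were higher in replicate 2, against 50.0% of the 18246 genes and 44.8% of the 12569. That count depended on the table, since the alignment-free counts gave 14 of 30 and a median ratio of -0.01 in place of 0.06.

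**Figure D2:**
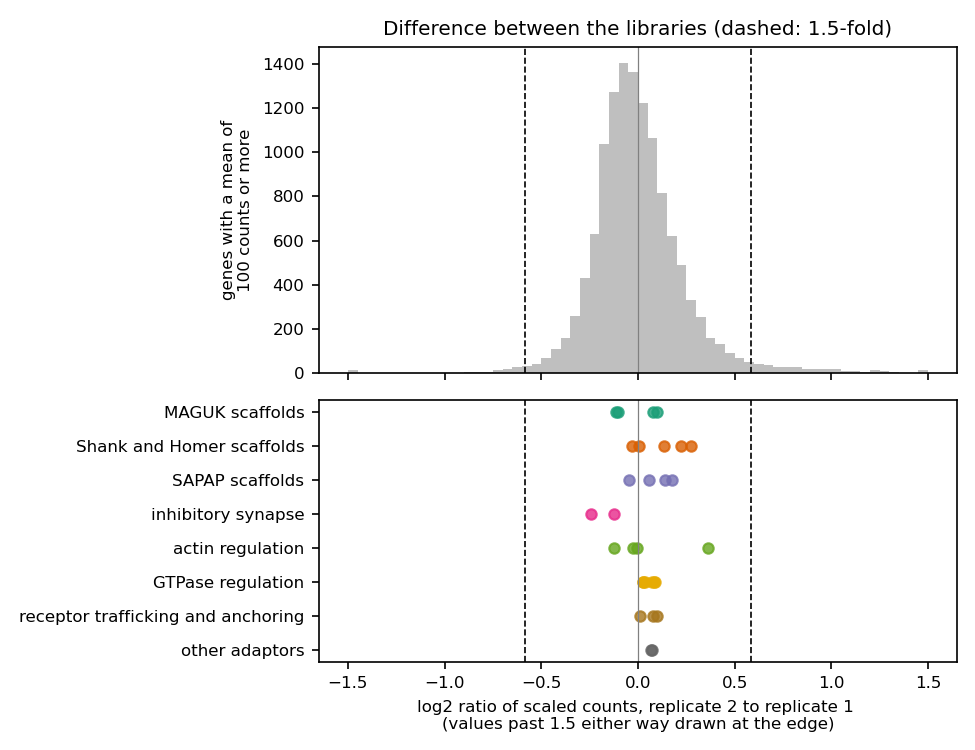
Log2 ratio of scaled counts, replicate 2 to replicate 1, as a histogram of the 12569 genes averaging at least 100 counts (top, number of genes) and as 1 point per gene of the set by role (bottom), with dashed lines at 1.5-fold. All 30 points lie inside the dashed lines, with Baiap2 (0.36) at the right end and Insyn1 (-0.24) at the left.

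The transcript tables were used to ask which isoform of each gene was expressed. The set has 284 annotated transcripts, from 3 to 22 per gene. Each library has a transcript table made from an alignment and an alignment-free one, 4 tables in all. The same transcript led, that is, held the most TPM of its gene, in all 4 tables for 22 of 30 genes, against 65.4% of 11643 expressed nuclear protein-coding genes with 2 or more transcripts. Between the libraries the leader was the same for 25 genes in the alignment-based tables and for 28 in the alignment-free tables.

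For the other 8 genes (Shank2, Shank3, Homer2, Homer3, Kalrn, Grip1, Pick1 and Abi2) the leader differed between tables or libraries. For Pick1 the tables swapped transcripts with the same coding sequence. Pick1-201 held 68.0% and 56.1% in the alignment-based tables and 1.08% and 0% in the alignment-free ones, while Pick1-203 held 4.51% and 2.78%, then 66.6% and 55.8%. Summed with Pick1-205 as 1 coding sequence of 1251 bases, they held 67.8% ± 6.58 in the alignment-based and 61.7% ± 8.39 in the alignment-free tables. For Abi2, the retained-intron transcript Abi2-209 of 362 bases led in replicate 1 of the alignment-based tables with 23.2%, and had 16.2% in replicate 2 but 0.809% and 0% in the alignment-free tables. Abi2-201 led in the other 3 tables.

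Shank2 had a pair of main forms whose order changed between the libraries. Shank2-202, with 4419 coding bases, held 45.7% and 37.5% in replicates 1 and 2 of the alignment-based tables, and Shank2-205, with 3789, held 39.1% and 47.0%. In the alignment-free tables Shank2-202 led in both libraries, by 45.7% to 31.1% in replicate 1 and by 38.0% to 37.6% in replicate 2. Shank3-203 and Shank3-201, with 5418 and 5193 coding bases, were level in the alignment-based tables (32.1% ± 0.519 and 32.3% ± 0.0870) but not in the alignment-free tables (40.9% ± 2.42 and 13.9% ± 1.13). Homer2-201 (1032 coding bases) and Homer2-202 (873) were also close, at 37.2% ± 8.07 and 36.9% ± 2.11. At the low levels of Homer3 and Grip1 no leader was stable. In replicate 1 the retained intron Homer3-207 led in both kinds of table, with 29.9% and 18.5%. In replicate 2 the leaders were Homer3-201 (47.4%) in the alignment-based table and Homer3-202 (30.6%) in the alignment-free one. The 1080-base coding sequence shared by Homer3-201 and Homer3-203 held 49.5% and 47.4% in the alignment-based tables, and 20.5% and 25.1% in the alignment-free ones. Grip1-205 held 30.4% ± 2.20 in the alignment-based tables and 3.15% ± 4.46 in the alignment-free tables.

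Kalrn and Dlgap4 had transcripts of very different coding length, each with 10% or more of the gene's TPM in all 4 tables. Kalrn-207 has 4965 coding bases and held 22.3% ± 0.677. Kalrn-205 (16.4% ± 3.39) and Kalrn-206 (13.7% ± 2.03) share a coding sequence of 3069 bases, which held 30.03% ± 5.42 in all, more than Kalrn-207 in both libraries. In the alignment-free tables Kalrn-207 held 18.6% ± 1.36 and the 3069-base coding sequence 18.0% ± 5.50, nearly all of it on Kalrn-206, and Kalrn-204 (3042 coding bases) led with 23.1% ± 1.09. The full-length Dlgap4-205 (2970 coding bases) held 62.6% ± 1.24, above Dlgap4-203 (1362) at 16.9% ± 0.491 and Dlgap4-201 (735) at 12.2% ± 0.461. In the alignment-free tables Dlgap4-205 also led, with 56.1% ± 0.0907. The short forms were level there, Dlgap4-203 at 10.6% ± 0.772 and Dlgap4-201 at 10.8% ± 0.707.

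Transcripts that share a complete coding sequence were then counted together, a grouping added after the values had been seen. The leading coding sequence was the same in all 4 tables for 19 of the 26 genes with 2 or more such sequences, against 75.4% of 6261 expressed coding genes. In several genes 1 coding sequence held nearly all TPM in the alignment-based tables. It held 99.7% ± 0.258 for Akap5, 96.4% ± 0.408 for Insyn1, 95.6% ± 0.946 for Agap2, 93.8% ± 0.405 for Cyfip2 and 90.3% ± 0.0352 for Dlgap3. Insyn1 and Cyfip2 have only 1 complete coding sequence in the annotation, so no other could compete in them. For Cyfip2 the tables again moved TPM between transcripts of that 1 coding sequence, with Cyfip2-201 at 0.977% ± 0.0419 in the alignment-based and 31.7% ± 0.121 in the alignment-free tables.

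Dlg4 went the other way. Its leading transcript was Dlg4-203 in all 4 tables, but its leading coding sequence was not the same. Dlg4-203, with 2175 coding bases, held 56.1% ± 2.89 in the alignment-based tables and 28.6% ± 0.334 in the alignment-free tables. The 1995-base coding sequence shared by Dlg4-201, Dlg4-216 and Dlg4-218 held 22.4% ± 0.276 and 37.9% ± 1.63. The alignment-free tables also gave 20.0% ± 0.827 to Dlg4-206, a transcript of 540 bases with an incomplete coding sequence, against 0.876% ± 0.602. In contrast, Cnksr2 was split the same way in every table: Cnksr2-201, with 3099 coding bases, held 52.5% ± 2.23 and 52.8% ± 2.25, and Cnksr2-202, with 2691, held 46.3% ± 2.49 and 46.1% ± 2.45.

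**Figure D3:**
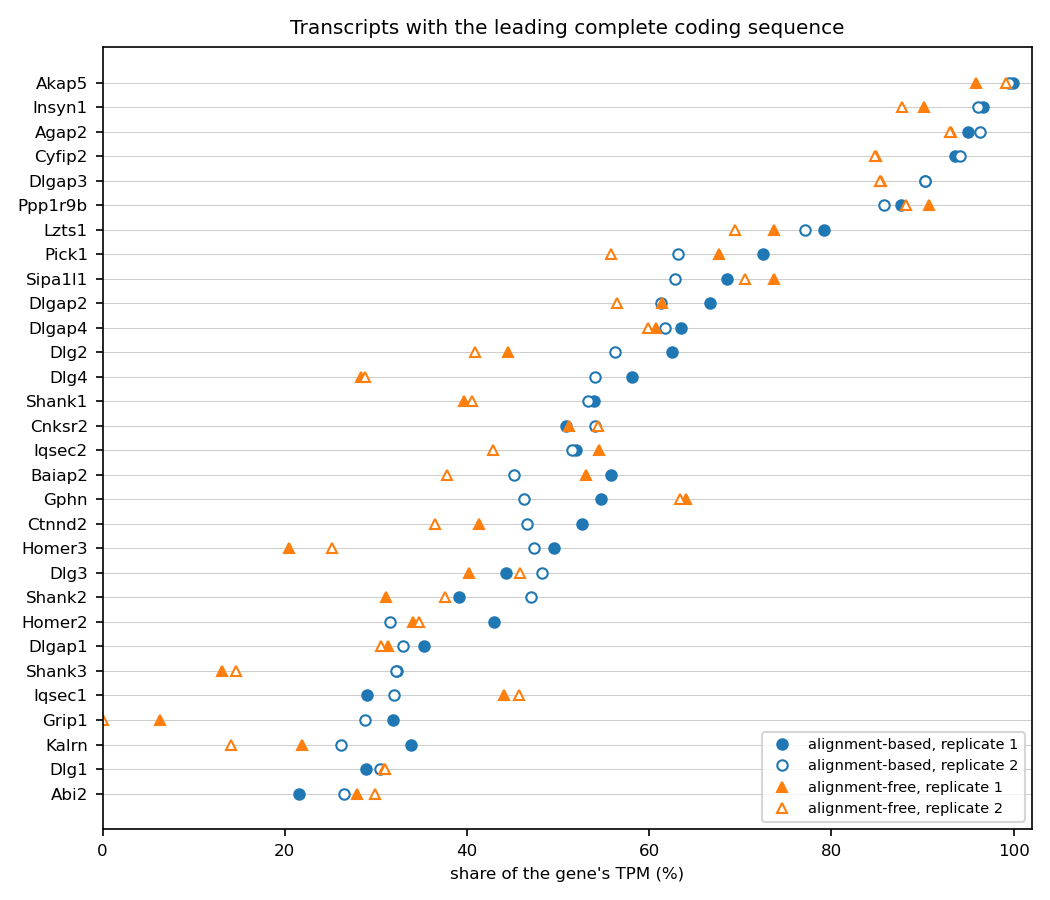
Share of each gene's TPM (%) held by the transcripts with its leading complete coding sequence, the one with the highest mean in the alignment-based tables, in the 4 transcript tables (circles alignment-based, triangles alignment-free, filled replicate 1, open replicate 2). Akap5 and Agap2 lie near the right edge in all 4 tables, and the tables lie far apart for Dlg4, Shank3, Homer3 and Grip1.

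Several pairs of coding sequences differed by 1 internal stretch. Over all 30 genes 17 such pairs of complete coding sequences were found. In 8 of them, in 6 genes, both forms held 10% or more of the gene's TPM in all 4 tables. These stretches, 24 to 120 bases long, were whole exons in 6 cases and part of an exon in 2. They are shown because both forms reached that share in every table. Capitals mark the stretch present in one form and absent from the other, with 12 coding bases on each side, 5′ to 3′ on the coding strand, from the GENCODE M21 transcripts. Coordinates are mm10 and all 8 lie on the plus strand.
Dlg3, chrX:100771307-100771360: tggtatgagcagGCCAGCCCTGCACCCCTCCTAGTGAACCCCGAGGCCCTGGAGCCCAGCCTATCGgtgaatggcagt
Dlg3, chrX:100811502-100811543: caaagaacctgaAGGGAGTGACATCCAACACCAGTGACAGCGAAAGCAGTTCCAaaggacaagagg
Shank1, chr7:44334033-44334059: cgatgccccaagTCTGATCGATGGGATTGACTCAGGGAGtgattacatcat
Shank1, chr7:44344298-44344321: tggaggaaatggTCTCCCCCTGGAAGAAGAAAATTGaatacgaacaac
Dlgap1, chr17:70718196-70718225: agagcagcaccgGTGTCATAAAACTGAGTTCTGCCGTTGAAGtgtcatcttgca
Baiap2, chr11:119996889-119997008: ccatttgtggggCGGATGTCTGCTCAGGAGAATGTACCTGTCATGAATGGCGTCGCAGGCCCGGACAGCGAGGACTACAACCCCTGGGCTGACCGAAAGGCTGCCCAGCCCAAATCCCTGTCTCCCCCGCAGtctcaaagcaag
Iqsec2, chrX:152216440-152216466: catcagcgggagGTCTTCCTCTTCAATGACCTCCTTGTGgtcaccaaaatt
Ctnnd2, chr15:30920712-30920786: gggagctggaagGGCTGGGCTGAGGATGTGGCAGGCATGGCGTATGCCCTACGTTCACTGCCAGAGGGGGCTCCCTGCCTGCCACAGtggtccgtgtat

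The form with the stretch had the higher mean share in all of these pairs but the Dlgap1 pair and the 54-base pair of Dlg3. For Shank1, Shank1-203 has both stretches and held 53.6% ± 0.429 of the gene's TPM, against 16.7% ± 1.61 for Shank1-201, which lacks the 27-base exon, and 12.9% ± 0.931 for Shank1-202, which lacks the 24-base exon. For Dlg3, Dlg3-202 has the 42-base exon and held 46.3% ± 2.79, against 22.4% ± 4.12 for Dlg3-204 without it. Dlg3-204 and Dlg3-202 both have the 54-base exon, which Dlg3-201 (23.0% ± 6.86) lacks. The 54-base pair compares Dlg3-201 with Dlg3-204 alone. Its order therefore leaves out Dlg3-202, the form with the highest share. Dlg3-201 and Dlg3-204 changed order between the libraries, Dlg3-201 holding 27.8% and 18.1% and Dlg3-204 19.5% and 25.3%.

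Iqsec2-203 has the 27-base stretch and held 51.8% ± 0.328, against 34.0% ± 0.769 for Iqsec2-207 without it. Ctnnd2-201 has the 75-base exon and held 49.6% ± 4.26, against 34.1% ± 1.31 for Ctnnd2-203. Baiap2-202 has the 120-base stretch and held 55.8% and 45.1% in the libraries, against 16.7% and 18.5% for Baiap2-203. In Dlgap1 the order was the opposite: Dlgap1-209, with the 30-base exon, held 18.8% ± 0.392 and Dlgap1-211, without it, 34.2% ± 1.63. The alignment-free tables gave the same order of means in each of the 8 pairs. For Ctnnd2 that lead was small there (38.9% ± 3.38 against 35.0% ± 3.39).

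Part of the TPM of most genes fell on transcripts with no annotated coding sequence, such as retained introns and processed transcripts. Their share was high for Homer3 (43.8% and 45.6% in the alignment-based tables), Iqsec1 (39.7% and 35.1%), Pick1 (27.5% and 36.8%) and Dlg2 (29.2% and 34.1%), and low for Cnksr2 (1.03% and 1.40%), Ppp1r9b (0.0973% and 0%) and Agap2 (0.0670% and 0.0834%). In the alignment-free tables the share stayed high for Homer3 (47.8% and 37.9%), Pick1 and Dlg2 (42.3% and 43.4%), but Iqsec1 had 17.1% and 14.7% and Agap2 3.71% and 4.50%. Akap5 and Cyfip2 have no such transcript in the annotation. Over the 28 genes that do, the median share was 8.86% in replicate 1 and 14.4% in replicate 2. The 9737 expressed coding genes with such a transcript had medians of 13.4% and 17.3%. The alignment-free medians were 12.5% and 15.4% for the set, and 15.2% and 19.2% for those genes. By counts, which are not divided by transcript length, the alignment-based medians were lower, 1.83% and 2.63% for the set and 5.442% and 7.504% for those genes. The share was larger in replicate 2 in both kinds of table for 18 of the 28 genes and smaller in both for 4, against 57.9% and 12.7% of 9737 expressed coding genes. The shift was thus about as frequent in the set as among expressed coding genes.

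The gap in the alignment-based tables was widest for Grip1 (8.80% and 25.7%), then Homer2 (5.59% and 19.4%), Pick1 (27.5% and 36.8%) and Ctnnd2 (7.76% and 14.8%). In the alignment-free tables Grip1 had 13.6% and 20.8%, Pick1 32.3% and 44.2%, and Ctnnd2 17.8% and 23.1%. Homer2 turned direction there, with 27.5% and 24.5%, and Homer3 had 47.8% and 37.9%. The nuclear noncoding RNAs Malat1 and Meg3 were also higher in replicate 2: Malat1 was at 4611 and 6516 TPM in replicates 1 and 2, and Meg3 at 931 and 1532 TPM. Their part in the shift of the shares was not tested. For Iqsec1 the share went the other way, and 14.6% ± 1.42 of its TPM in the alignment-based tables lay on Iqsec1-204, a processed transcript of 244 bases listed at 0 in the alignment-free tables.

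**Figure D4:**
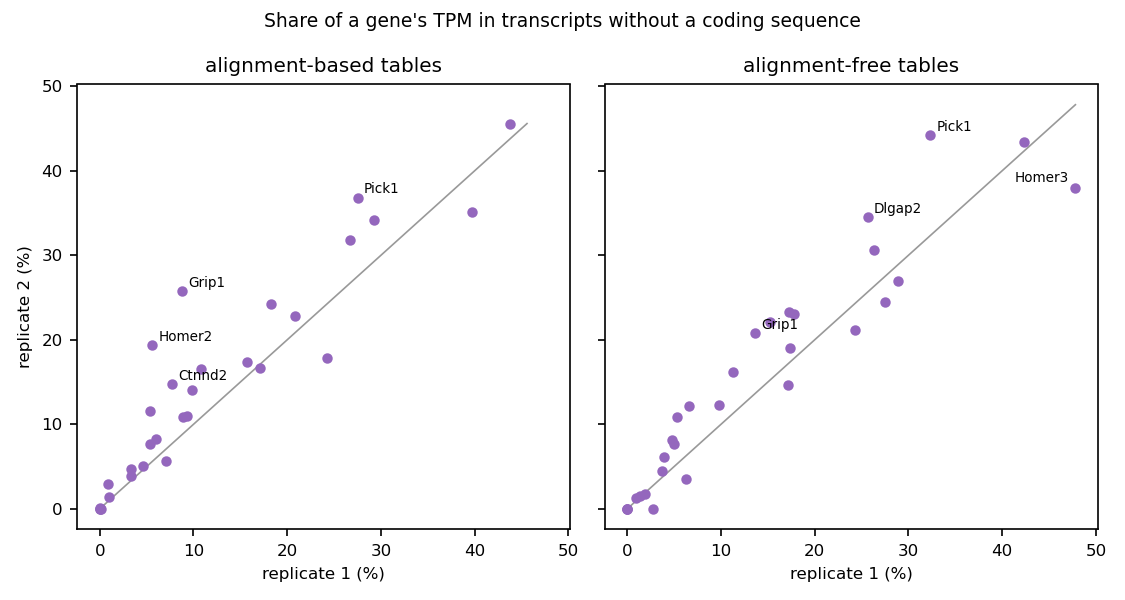
Share of each gene's TPM (%) in transcripts without a coding sequence, replicate 1 on the x axis and replicate 2 on the y axis, in the alignment-based (left) and alignment-free (right) tables, with the line of equality and names where the libraries differ by more than 7 percentage points. Most points lie above the line in both panels, Grip1 and Pick1 among them, and Iqsec1 (39.7% and 35.1%) lies below it on the left.

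The kind of table also set the level. Alignment-free TPM summed to genes was higher for all 30 genes, by 1.20 times (Iqsec1) to 2.41 times (Homer3), with a median of 1.59 times against 1.62 times for expressed coding genes. It was over 1.5 times as high for 25 genes, against 74.0% of expressed coding genes. When both kinds of table were rescaled to nuclear protein-coding genes, 0 of the 30 genes and 3% of expressed coding genes stayed past 1.5 times. The order of the 30 genes was almost the same in both (Spearman's rho 0.992 across genes, which are not independent replicates). In the alignment-free tables Dlg4 held 58.4% ± 0.798 of the summed TPM of its family within the set, Shank1 65.7% ± 0.839 and Dlgap1 39.4% ± 0.599. The share of Iqsec1 in the sum of Iqsec1 and Iqsec2 moved further, from 69.6% ± 1.58 to 63.3% ± 0.910, and that of Homer3 in the sum of Homer2 and Homer3 from 12.2% ± 1.67 to 16.7% ± 1.47.

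The 30 genes are also long. Their median span was 94.0 kb, against 26.1 kb for 12833 expressed coding genes, and 15 of 30 spanned over 100 kb, against 16.3%. Dlg2 was the longest at 1973 kb (chr7:90476672-92449247, mm10) and Akap5 the shortest at 9.26 kb (chr12:76324891-76334153). The leading transcripts had a median of 16 exons and 2952 coding bases, against 8 and 1356. Dlg3, Cnksr2 and Iqsec2 lie on the X chromosome.

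Other genes of the same families and structures were taken from 2 lists. Of 19 close paralogues outside the set, 16 reached 1 TPM in both libraries, with medians of 23.4 and 26.5 TPM, and none of the 16 tested passed 1.5-fold between the libraries. Agap3 (221 and 226 TPM), Trio (100.5 and 128 TPM), the relative of Kalrn, and Agap1 (108 and 109 TPM) led, so Agap3 approached the level of Agap2. The place of Agap1 depended on the kind of table. In the alignment-free tables it had 52.4 and 54.0 TPM, below Lzts3 (118 and 142 TPM) and Ppp1r9a (119 and 126 TPM). Cnksr1 (0.230 and 0.370 TPM), Baiap2l1 (0.190 and 0.260 TPM) and Dlgap5 (0.360 and 0 TPM), the mitotic member of the SAPAP family, stayed under 1 TPM. Cyfip1 (30.5 and 33.4 TPM) and Abi1 (60.6 and 59.9 TPM) lay below their paralogues Cyfip2 and Abi2 in both libraries.

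All 22 other postsynaptic partners reached 1 TPM in both libraries, with medians of 66.6 and 71.6 TPM, and 0 of 22 passed 1.5-fold. They were led by Nrgn, which encodes the calmodulin-binding protein neurogranin (738 and 753 TPM), and the kinase gene Dclk1 (363 and 355 TPM).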

How the data were processed

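Gene tables, alignment-based transcript tables and alignment-free transcript tables of 2 libraries were used. Per the text deposited with each library, they refer to mm10 and GENCODE M21, the first pair made from a transcriptome alignment and the last from the reads and an index; which quantifiers were run is not given in the sources used here. The deposited expected counts and estimated counts are not normalized. The deposited TPM values were scaled by the authors over all entries of a table, spike-ins and short RNAs included, per the file headers and their sums.

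The 30 genes were matched by the gene-name field of the alignment-free tables and joined on gene identifier. Library ratios used expected counts rounded to whole numbers, over all annotated genes averaging at least 10 counts, scaled with edgeR 4.0.16 (TMM) in R 4.3.3, as log2 CPM with a prior count of 2. These steps were tested on simulated data. Where nothing was counted, counting error alone leaves room for 3 counts (0.0927 CPM in replicate 1, 0.121 CPM in replicate 2). Isoform shares were recomputed from TPM with Python 3.11.15. Coding sequences came from the M21 annotation and transcripts, and were grouped when their coding positions were identical; sequences with an incomplete start or end were left out of the groups. With 1 group there was no test. The genes and lists were chosen with earlier results of these data known. All 30 genes are named, isoforms are described where the leader differed between tables or was noncoding, or where coding lengths differed by 1.5 times or more, and further isoforms were chosen after their values were seen. The leading 3 genes of each further list and those under 1 TPM are named, except 1 that is not reported here, and Cyfip1 and Abi1 were added. Alternatives covered thresholds, tables, scaling, filters and leaving out a library.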

Additional observations from a re-analysis of the deposited data

How the results depend on the processing

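The count of genes at the threshold was 30 at 0.5 TPM, 29 at 5 TPM, 30 in the alignment-free tables and 30 to 30 with either library alone. The median of the set was 157 TPM in the alignment-free tables, 222 TPM after rescaling to nuclear protein-coding genes and 210.0 TPM with both changes, and 94.3 to 101.9 TPM with either library alone. No gene passed 1.5-fold between the libraries under any of the 5 alternatives. The median log2 ratio stayed between 0.03 and 0.07 under other scalings, filters and prior counts, and turned to -0.0074 with alignment-free counts; the cause was not tested. The count of genes with 1 leading transcript was 22 in all 4 tables, 24 to 25 with either library alone, and 23 with protein-coding transcripts only. Grouped by coding sequence it was 19 of the 26 genes with 2 or more complete coding sequences; the other 4 have 1 and could not differ. The count over 1.5 times as high in the alignment-free tables was 24 to 26 with either library alone and 0 after rescaling. All 30 TPM values and 26 of 30 leading shares moved by more than 1 SD between the kinds of table. The larger share without a coding sequence in replicate 2 held for 18 genes by TPM and 19 by counts. Precision is limited by 2 libraries that may not be separate animals, and by low depth for Homer3, with 141 and 106 counts.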
